A study of Homo sapiens
Mus musculus with 8 samples.

Results

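Within the mouse line IVA12, a small class of cells carried far more RNA of Crip1 than the rest of the line. The line had been grown and mixed by the study in equal parts with the mouse T cell line EL4 and the human T cell lines Jurkat and TALL-104, and the mixture was run on the Chromium droplet system of 10x Genomics, which tags each captured RNA molecule with a cell barcode and a unique molecular identifier (UMI). Crip1-high IVA12-like cells were chosen from the counts of single barcodes. A barcode was IVA12-like if it held at least 5000 UMIs, with over 80% on mouse genes, under 10% of the mouse UMIs on mitochondrial genes, at least 0.02% of them on Epcam, Cd24a, Ctss and Ckap4 together, and at least 5 times as much on these 4 genes as on Lgals1, S100a6 and Perp, which are high in EL4. Of 23147 barcodes with at least 5000 UMIs, 4586 were IVA12-like. Of these, 235 had Crip1 at 0.1% or more of their mouse UMIs and are called Crip1-high, 4334 had it under 0.02% and are called Crip1-low, and 17 lay between. The choice used the measured counts of the 8 genes named, so their levels are described below without a test. The limits on total UMIs, mouse share and mitochondrial genes also used measured counts and were the same for both classes.

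The data came from 7 libraries of cells with no treatment named, 4 made with the 3′ v3 kit, 2 with 5′ v1 and 1 with 3′ v2 (replicate 2). The kits count messenger RNA from its 3′ or its 5′ end. All groups share the same 4 cell lines and differ in kit, targeted capture (2000 to 6000 cells), mixture and run, and each library holds both classes, so every comparison was made within libraries. By the sample table of the study, 3′ v3 replicates 1 and 3 share a cell mixture, 3′ v3 replicates 2 and 4 share another, and so do the 5′ v1 libraries. The 7 libraries therefore stand for 4 mixtures of the same cultured lines, no library is a separate isolate of the line, and p-values measure the spread between libraries.

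Crip1, cysteine-rich protein 1, is a small protein made of a LIM domain, a zinc-binding fold through which proteins bind other proteins. The genes that led the description of the class are Samhd1, Edem2 and Fam120a. Samhd1 encodes an enzyme that breaks down deoxynucleotides and limits infection by retroviruses. Edem2 encodes a mannosidase-like protein that marks misfolded glycoproteins in the endoplasmic reticulum for destruction. Fam120a encodes an RNA-binding scaffold protein. B lineage cells that secrete antibody depend on a large endoplasmic reticulum, and most cells show peptides to T cells on MHC class I molecules, whose genes rise with interferon.

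Library totals ran from 24790710 to 251164949 UMIs. The summed Crip1-high cells held 266664 to 2987591 mouse UMIs per library and the Crip1-low cells 1473141 to 49692150. No barcode was Crip1-high in more than 1 library. The label of a B lineage line held in both classes: Jchain, the joining chain of secreted antibodies, was at 655 to 3130.0 CPM (median 1698) in Crip1-high and 954 to 4421 CPM (median 2957) in Crip1-low sums, where CPM are counts scaled to 1000000 mouse UMIs, against a median of 26.8 CPM in the 8315 EL4-like cells. The MHC class II chains were too low to be tested apart from Cd74. Of 24 listed T cell markers, 21 were in the gene list. Summed, they lay at 6.35 to 108.1 CPM in Crip1-high and 12.3 to 107.6 CPM in Crip1-low sums. In EL4-like cells they lay at 4414 to 6325 CPM. EL4-like cells were chosen by the same rule with the gene sets exchanged. The list holds Lgals1, S100a6 and Perp, so part of the gap to EL4-like cells was set by the choice. The defining T cell markers were near 0 in both classes, as shown by Thy1 with 0 to 12 CPM (median 3.75) in Crip1-high and 0.588 to 9.44 CPM (median 4.65) in Crip1-low sums and 669 CPM in EL4-like cells.

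Crip1 separated the line into groups with few cells between them. In the lowest Crip1-high cell of a library Crip1 was 0.117% to 0.499% of mouse UMIs, and the highest cell below that threshold was at 0.0138% to 0.0874%. Between 0.05% and 0.2% lay 14 of the 4586 cells, with none in the 3′ v2 library or in 3′ v3 replicate 1 and 5 each in 5′ v1 replicate 2 and 3′ v3 replicate 4. In summed Crip1-high cells Crip1 (ENSMUSG00000006360) was at 18440 CPM in 3′ v2, 7285 and 5065 CPM in 5′ v1, and 8970, 4140, 12251 and 3697 CPM in 3′ v3 replicates 1 to 4. Crip1-low sums held 8.04 to 38.7 CPM and EL4-like cells 58.7 to 444 CPM. Levels in the Crip1-high cells were thus highest in 3′ v2, and in 3′ v3 they were higher in replicates 1 and 3 than in replicates 2 and 4. Mouse UMIs caught in human cells, which measure free RNA, held Crip1 at 36.0 to 463 CPM in 6 libraries and at 2106 CPM in 3′ v2 (a share of that free RNA, not of the RNA of a cell).

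**Figure D1:**
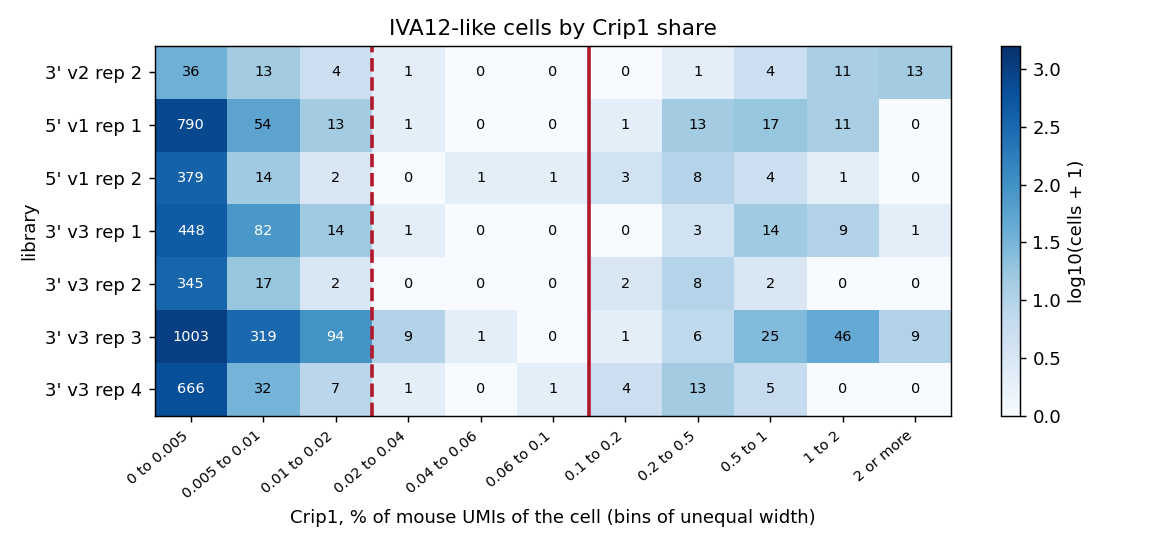
Number of IVA12-like cells of each library (rows) by the share of Crip1 in their mouse UMIs (columns, bins of unequal width); shading is log10 of the number plus 1, the dashed line marks 0.02% and the solid line 0.1%. Most cells sit left of the dashed line, a smaller group sits right of the solid line, and 17 cells lie between.

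The share of IVA12-like cells that were Crip1-high was 4.67% (42 of 900, exact 95% interval 3.38% to 6.26%) and 3.87% (16 of 413, 2.23% to 6.22%) in the 5′ v1 libraries. In 3′ v3 replicates 1 to 4 it was 4.72% (27 of 572, 3.13% to 6.79%), 3.19% (12 of 376, 1.66% to 5.51%), 5.75% (87 of 1513, 4.63% to 7.04%) and 3.02% (22 of 729, 1.90% to 4.53%). The 3′ v2 library stood apart with 34.9% (29 of 83, 24.8% to 46.2%). Intervals cover counting error only. The 3′ v2 library is the only one of its kit and of its mixture, so kit, mixture and run cannot be told apart there. Crip1 at 0.1% or more was also seen outside the class, in 76 of 488 mouse cells that matched neither line and in 42 of 8315 EL4-like cells, 23 of these in 3′ v2 and 16 in 3′ v3 replicate 3. Whether any of them are IVA12 cells was not tested.

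The genes that led the description of the class showed the same order in every library. Samhd1 was at 51.9 to 97.5 CPM (median 70.5) in Crip1-high and 128 to 213 CPM (median 192) in Crip1-low sums, so the classes did not overlap. Edem2 was at 19.1 to 65.5 CPM (median 51.9) in Crip1-high and 87.6 to 180.3 CPM (median 141) in Crip1-low sums and did not overlap either. Fam120a was higher in Crip1-high cells of all 7 libraries, at 79.3 to 236 CPM (median 103) in Crip1-high and 42.2 to 88.7 CPM (median 61.1) in Crip1-low sums, with overlap between libraries. The fitted log2 fold changes, Crip1-high over Crip1-low, were −1.39 ± 0.08 (SE) for Samhd1, −1.52 ± 0.10 for Edem2 and 1.08 ± 0.08 for Fam120a. These genes were named with the class from the same data and are given without a test. Among the genes of the rule, Cd24a, a surface glycoprotein of B cell precursors, was at 13.7 to 57.1 CPM (median 21.1) in Crip1-high and 58.2 to 130.2 CPM (median 60.5) in Crip1-low sums. Ctss, a lysosomal protease that trims the class II invariant chain, was at 26.3 to 117 CPM (median 90.7) and 79.6 to 160.4 CPM (median 132), and Ckap4, an anchor of endoplasmic reticulum sheets, at 124 to 197 CPM (median 165) and 168 to 243 CPM (median 218). These 3 were lower in Crip1-high cells of all 7 libraries, while Epcam, an epithelial adhesion molecule, was higher in 5 of 7, at 163 to 291 CPM (median 225) and 100.3 to 223 CPM (median 196). With a floor of 0.01% in place of 0.02% for these 4 genes together, the members numbered 29 in place of 22 in 3′ v3 replicate 4 and 91 in place of 87 in replicate 3.

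The members were somewhat smaller in RNA content and richer in mitochondrial RNA. The median Crip1-high cell held 18790 to 34319 UMIs per library and the median Crip1-low cell 25883 to 35840.5 UMIs, with a mean difference of −4195 UMIs ± 3022 (SD, n = 7 libraries), lower in 7 of 7 (exact sign-flip permutation p = 0.0156, two-sided, adjusted p = 0.0312). The median mitochondrial share was 2.47% to 7.70% against 2.08% to 6.88%, higher in 7 of 7 by 0.935 points ± 0.339 (SD, n = 7; exact permutation p = 0.0156, adjusted p = 0.0312). Both p-values are the smallest that 7 pairs allow. The test takes the 7 libraries as separate, though they stand for 4 mixtures, and no test of these measures by mixture was made. Genes per cell at 5000 UMIs differed by −22.6 ± 25.8 (SD, n = 7; exact permutation p = 0.0625, adjusted p = 0.0833), with means of 1844 and 1867 genes. The share of UMIs on human genes, a measure of free RNA, was 0.335% and 0.337% on average (exact permutation p = 0.828). Total UMIs, mitochondrial share and human share had been limited by the choice of cells, alike in both classes. With cells of under 5% mitochondrial share, which left few members and none in 2 libraries, the difference in UMIs was −3213, lower in 3 of 5 libraries. The difference in mitochondrial share was then −0.0304 points, but that limit cuts the measure itself. With 5 pairs the test cannot give a p under 0.0625.

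**Figure D2:**
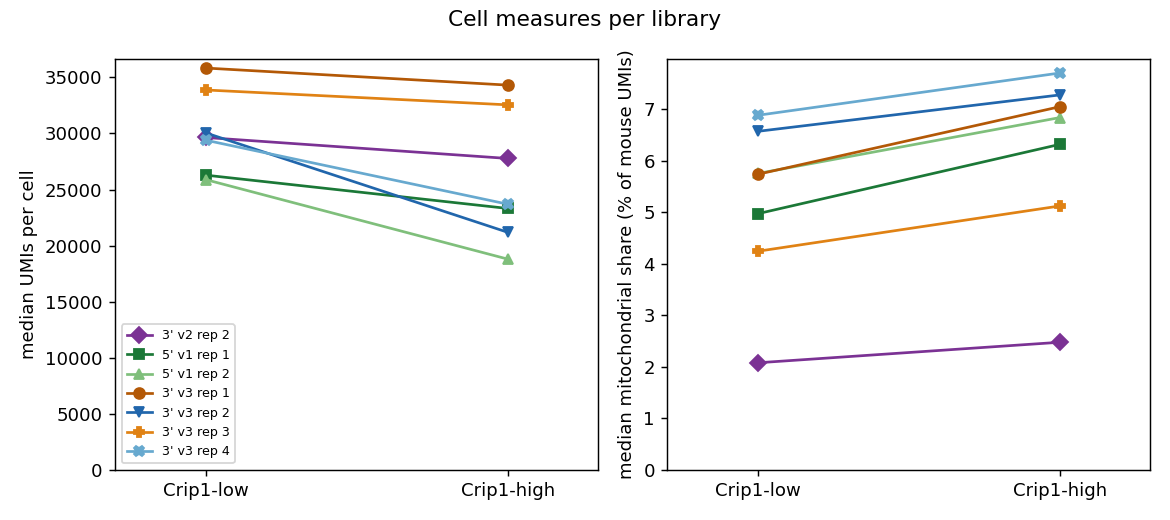
Median UMIs per cell (left) and median share of mouse UMIs on mitochondrial genes in percent (right) in Crip1-low and Crip1-high IVA12-like cells; each line is a library. All 7 lines fall on the left and all 7 rise on the right.

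The comparison of the classes asked which other genes differed. Counts were summed per library and class and tested with edgeR, with the library as a block. Of 8517 mouse genes tested, 1230 were higher and 1411 lower in Crip1-high cells at an adjusted p under 0.05, which is 14.4% and 16.6% (31.0% together), and the median log2 fold change over all genes was −0.01. Of those called, 603 (7.08% of genes tested) were higher and 899 (10.6%) lower in each of the 7 libraries. The levels of 160 genes (1.88% of those tested) did not overlap between the classes. These shares are the background for every count of genes below. Without the 3′ v2 library, which stood apart, 1206 genes were higher and 1562 lower. Depth and mitochondrial share moved with the class, as given above. With each cell thinned to 5000 UMIs, 372 genes were higher and 364 lower, and among cells of under 5% mitochondrial share 410 and 488. Of the 88 genes named here, 63 could still be tested after thinning, and 56 of these had the same direction and outcome of the test. Among cells of under 5% mitochondrial share 75 of 85 did. Most named genes were picked for a large change or a small p. The part of depth and mitochondrial share in the calls was not tested. The libraries were also fitted as separate sets, which share no library, cell or mixture. In the 4 libraries of 3′ v3, 1180 genes were higher (11.6% of 10178) and 1413 lower (13.9%), and in the 5′ v1 and 3′ v2 libraries 412 were higher (5.48% of 7517) and 457 lower (6.08%). Among the 7510 genes tested in both, 304 of the 992 genes higher in 3′ v3 were also called higher in the other set, which is 30.6% of the 3′ v3 genes and 73.8% of the 412 genes of the other set. For lower genes it was 390 of 1217 (32.0%) and of 456 (85.5%). None was called in opposite directions, and 91.7% of the higher and 93.0% of the lower 3′ v3 genes had the same sign in the other set, against 49.5% above and 50.5% below 0 there over all 7510 genes.

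Among the genes that rose most, by a rule that asked for a mean of at least 20 CPM and the same direction in 7 of 7 libraries, were Tmsb4x, Socs3, Csf2rb, Bik, 4930427A07Rik, Cbfa2t3, Atxn10, Sms, Ptch1, Msl3 and Zrsr2. Csf2rb, the receptor chain shared by interleukin 3, interleukin 5 and GM-CSF, was at 44.3 to 283 CPM (median 86.1) in Crip1-high and 20.4 to 46.8 CPM (median 29.4) in Crip1-low sums (log2 fold change 1.69 ± 0.26, adjusted p = 0.00290). The lowest Crip1-high sum lay within the range of the Crip1-low sums. That the gene was higher in 7 of 7 libraries was a condition of the rule. Socs3, an inhibitor of JAK-STAT signalling, was at 12.7 to 50.7 CPM (median 46.4) in Crip1-high and 2.04 to 15.8 CPM (median 9.77) in Crip1-low sums (log2 fold change 2.01 ± 0.22, adjusted p = 5.95e-06). The 5′ v1 replicate 2 sum was the lowest of its class, at 12.7 CPM.

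Tmsb4x, thymosin beta 4, which binds actin monomers, had the largest fitted rise among them, 3.39 ± 0.52 on the log2 scale (SE; adjusted p = 0.00293), at 17.1 to 69.7 CPM (median 38.3) in Crip1-high and 0.392 to 9.50 CPM (median 2.55) in Crip1-low sums. It is abundant in EL4-like cells, with a median of 692 CPM. Summed T cell markers were higher in Crip1-high than in Crip1-low cells in 3′ v3 replicate 4 (85.6 against 61.4 CPM) and, by less than 1 CPM, in replicate 3. That sum includes Lgals1, S100a6 and Perp, which the rule limits in both classes. Without cells holding a UMI of 6 T cell genes, the log2 fold change of Tmsb4x was 3.51 (adjusted p = 0.0161). The part of EL4 RNA in its values was not tested further. When each cell was thinned to 5000 UMIs, 37 of 235 Crip1-high cells (15.7%) had a UMI of Tmsb4x, against 95 of 4334 Crip1-low (2.19%) and 5848 of 8311 EL4-like cells (70.4%). Without thinning the shares ran over libraries from 27.6% to 64.4% in Crip1-high and from 1.01% to 21.7% in Crip1-low cells. In the 5′ v1 and 3′ v2 libraries alone the log2 fold change of Tmsb4x was 4.56, larger than in the fit of all libraries, with an adjusted p of 0.133.

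The other genes of this group have varied roles. Bik, a BH3-only protein that promotes cell death, had a log2 fold change of 1.62 and 4930427A07Rik, a transcript of unsettled function next to Crip1, of 1.59. Cbfa2t3, a transcriptional corepressor, rose by 1.52 and Atxn10, ataxin 10, by 1.42, the latter with 19 against 18.8 CPM in 5′ v1 replicate 2, where the classes hardly differed. Sms, the enzyme that makes spermine, rose by 1.27, and Ptch1, the receptor for hedgehog ligands, by 1.24. For Ptch1 the log2 fold change was 0.63 in the 5′ v1 and 3′ v2 libraries alone (adjusted p = 0.0566) and 0.79 without cells holding a UMI of 6 T cell genes. Msl3, a subunit of a histone acetyltransferase complex, rose by 1.20, from 14.9 to 20.7 CPM (median 16.8) to 24.3 to 56 CPM (median 40.8). Zrsr2, a splicing factor of the minor spliceosome, rose by 1.19, from 26.1 to 42.8 CPM (median 27.9) to 45.4 to 113 CPM (median 66.7). The levels of Msl3 and Zrsr2 did not overlap between the classes. None of these 11 adjusted p-values exceeded that of Tmsb4x, 0.00293.

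The genes that fell most by the same rule were Hpx, Spinkl, Rhox5, Ly6d, Rpl39l, Kcnq1ot1, Sis, Cd52, Slpi, Ptprcap, Psmb8 and Cp, and for all but Cp the classes did not overlap. Hpx, hemopexin, a plasma protein that binds heme, was at 0 to 4.03 CPM (median 0) in Crip1-high and 67.5 to 123 CPM (median 85.1) in Crip1-low sums, with 0 in 5 of 7 Crip1-high sums (log2 fold change −5.30 ± 0.22, SE; edgeR adjusted p = 9.17e-25). That SE was derived from the test statistic, and with so few Crip1-high UMIs the size of the fall is uncertain. At 5000 UMIs per cell, 0 of 235 Crip1-high cells had a UMI of Hpx, against 1403 of 4334 Crip1-low cells (32.4%) and 30 of 8311 EL4-like cells (0.361%). Cells were pooled over libraries here, and a small share of cells with a UMI could go unseen at that depth. Without thinning, Hpx was seen in 0% to 8.05% of Crip1-high and in 67.6% to 90.6% of Crip1-low cells of a library. Spinkl, a relative of the Kazal protease inhibitors, was at 0 to 4.69 CPM (median 0) in Crip1-high and 34.6 to 59.4 CPM (median 44.2) in Crip1-low sums. Its log2 fold change of −4.48 was −7.35 without 3′ v3 replicate 3, which holds most of its Crip1-high UMIs. Rhox5, an X-linked homeobox gene, was at 0 to 38.5 CPM (median 11.1) in Crip1-high and 191 to 494 CPM (median 209) in Crip1-low sums (log2 fold change −3.92 ± 0.15, adjusted p = 7.98e-16).

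Of the other genes that fell, Ly6d, Cd52 and Ptprcap encode membrane proteins of lymphocytes. Ly6d, a lipid-anchored surface protein used to stage B cell precursors, was at 0 to 9.52 CPM (median 5.04) in Crip1-high and 17.2 to 90.7 CPM (median 35) in Crip1-low sums, and Cd52, another lipid-anchored protein, at 5.14 to 65.3 CPM (median 18.8) in Crip1-high and 88.7 to 222 CPM (median 168) in Crip1-low sums. Ptprcap, a partner of the phosphatase CD45, was at 8.20 to 45.3 CPM (median 22.4) in Crip1-high and 59.8 to 117 CPM (median 87.8) in Crip1-low sums. Their log2 fold changes were −3.05 ± 0.19, −2.26 ± 0.27 and −1.98 ± 0.13 (SE). Slpi, a secreted inhibitor of leukocyte proteases and by level the leading gene of this group, went from 999.9 to 1856 CPM (median 1564) to 105 to 877 CPM (median 209.6) (log2 fold change −2.12 ± 0.35, adjusted p = 0.00436), with the highest Crip1-high sums, 877 and 598 CPM, in 3′ v3 replicates 1 and 3. In the 3′ v3 libraries alone the log2 fold change of Slpi was −1.46 (adjusted p = 0.0809), and that of Csf2rb, which rose, was 1.76 (adjusted p = 0.0840), close to its value in all libraries. Cp, ceruloplasmin, a copper-carrying plasma protein, fell by 1.61 on the log2 scale, and Sis, listed under the symbol of sucrase-isomaltase, by 2.40. Rpl39l, which can share reads with its parent gene Rpl39, fell by 2.66. Kcnq1ot1, an RNA that overlaps Kcnq1 on the other strand, fell by 2.52. Whether the counting used strand is not given in the sources used here.

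**Figure D3:**
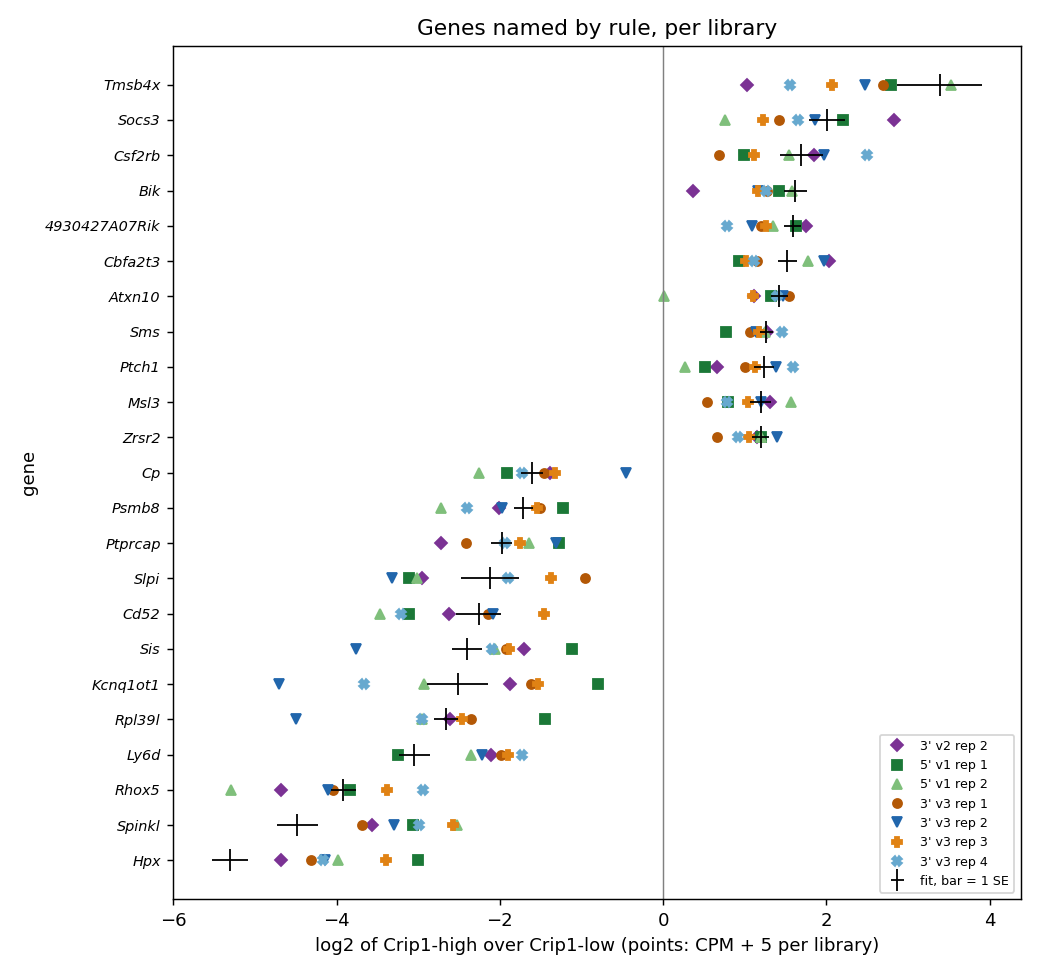
Log2 ratio of Crip1-high to Crip1-low sums for the genes named by rule for the size of their change; points are the 7 libraries, from CPM plus 5, and black bars are the fitted log2 fold change ± 1 SE. All points of the upper 11 genes lie above 0 and all points of the lower 12 below 0, since the rule asked for the same direction in 7 of 7 libraries.

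Some genes with a mean under 20 CPM differed almost as presence and absence. They were chosen for this after their values were seen, so their p-values and lack of overlap are no separate support. The filter on low counts lets a gene pass through the sums of 1 class. Hspb8, Tbrg1 and, above, Tmsb4x passed through their Crip1-high sums. Fcgr4, Arhgap15 and, above, Hpx and Spinkl passed through their Crip1-low sums, as did Pld4, named below. Other named genes with a class near 0 may have passed in the same way. Hspb8, a small heat shock protein, was at 23.2 to 36 CPM (median 27.4) in Crip1-high and 0.679 to 2.71 CPM (median 2.31) in Crip1-low sums (log2 fold change 3.67 ± 0.19, adjusted p = 9.17e-25). Tbrg1, a growth regulator tied to p53, was at 19 to 53.1 CPM (median 30.2) in Crip1-high and 1.08 to 4.69 CPM (median 3.08) in Crip1-low sums, with a log2 fold change of 3.35 ± 0.19. In the other direction, Fcgr4, an activating receptor for antibody, was at 0 to 1.06 CPM (median 0) in Crip1-high and 18.3 to 36 CPM (median 21.3) in Crip1-low sums, with 0 in 5 of 7 Crip1-high sums. Arhgap15, which switches off the GTPase Rac, was at 0 to 2.11 CPM (median 0) in Crip1-high and 5.43 to 21.9 CPM (median 16.8) in Crip1-low sums, again with 0 in 5 of 7. The classes did not overlap for Hspb8, Tbrg1, Fcgr4 or Arhgap15.

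MHC class I genes fell together in the Crip1-high cells. Of 14 tested genes of antigen presentation by class I, 13 were lower and 0 higher, and their median log2 fold change was −1.20, against −0.01 over all genes. H2-K1, a classical class I heavy chain, was at 34.9 to 99.1 CPM (median 48.8) in Crip1-high and 99.6 to 287 CPM (median 204) in Crip1-low sums (log2 fold change −1.58 ± 0.10, edgeR adjusted p = 3.84e-21). The heavy chain H2-D1 was at 28.7 to 112 CPM (median 51.4) in Crip1-high and 87.6 to 221 CPM (median 137) in Crip1-low sums, and B2m, the light chain shared by all class I molecules, at 139 to 381 CPM (median 216) in Crip1-high and 274 to 646 CPM (median 488) in Crip1-low sums. H2-K1 did not overlap between the classes, whereas H2-D1 and B2m overlapped between libraries and were lower in 7 of 7. Class I molecules share sequence, so reads of H2 genes may be split between them.

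The subunits of the immunoproteasome did not move together. Psmb8 was at 6.85 to 52.4 CPM (median 16.4) in Crip1-high and 57.9 to 154 CPM (median 111) in Crip1-low sums (log2 fold change −1.71 ± 0.11, adjusted p = 1.09e-18) and Psmb9 at 3.42 to 47.2 CPM (median 28.6) in Crip1-high and 41.1 to 113 CPM (median 94.8) in Crip1-low sums (log2 fold change −1.48 ± 0.12). Psmb10, the remaining subunit and the only class I gene tested that was not called, was at 88.9 to 223 CPM (median 109) in Crip1-high and 72.3 to 169 CPM (median 108) in Crip1-low sums (log2 fold change 0.14 ± 0.08, adjusted p = 0.164). Its log2 fold change was 0.08 without the 3′ v2 library and 0.23 without 3′ v3 replicate 3, and it did not pass in either. It was 0.01 in the 3′ v3 libraries alone and 0.37 in the others, again without passing, and 0.21 with a floor of 0.01% for the IVA12 markers, where it passed (adjusted p = 0.0260). Tap1, a subunit of the peptide transporter, fell by 1.22 on the log2 scale. H2-D1, B2m, Tap1 and Psmb10 are named after their values were seen. Among the genes named here, H2-K1, Psmb9, Tap1, Psmb8 and H2-D1 follow each other in the order of the deposited gene list. Psmb10 lies elsewhere in it. The part of position in the fall of class I genes was not tested. The summed class I genes were at 433 to 903 CPM in Crip1-high and 825 to 1807 CPM in Crip1-low sums, and the median log2 ratio of the 14 genes was between −0.70 and −1.53 in each of the 7 libraries.

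Genes of the interferon response and of nucleic acid sensing showed the same direction with smaller differences. Of 28 tested, 14 were lower, 0 higher and 14 not called, with a median log2 fold change of −0.43. Isg15, a ubiquitin-like protein induced by interferon, was at 3.75 to 92.7 CPM (median 61.6) in Crip1-high and 21.5 to 166 CPM (median 128) in Crip1-low sums (log2 fold change −1.03 ± 0.10, adjusted p = 3.02e-12). Bst2, tetherin, which holds budding viruses at the surface, was at 83.9 to 727 CPM (median 260.1) in Crip1-high and 182 to 985 CPM (median 422) in Crip1-low sums (log2 fold change −0.73 ± 0.07), and Ifi35, an interferon-induced protein, at 15 to 64.5 CPM (median 42.4) in Crip1-high and 48.3 to 119 CPM (median 78.8) in Crip1-low sums, with −0.86 ± 0.10. The level of Isg15 also varied between preparations: Crip1-low sums held 141 and 128 CPM in 3′ v3 replicates 1 and 3, but 21.5 and 24.1 CPM in replicates 2 and 4. Within each library the Crip1-high sum was the lower. Summed over the list, Crip1-high cells held 618 to 1878 CPM and Crip1-low cells 978 to 2448 CPM. In EL4-like cells H2-K1 was higher than in either class, with a median of 678 CPM, and Isg15 lower, with 3.72 CPM.

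**Figure D4:**
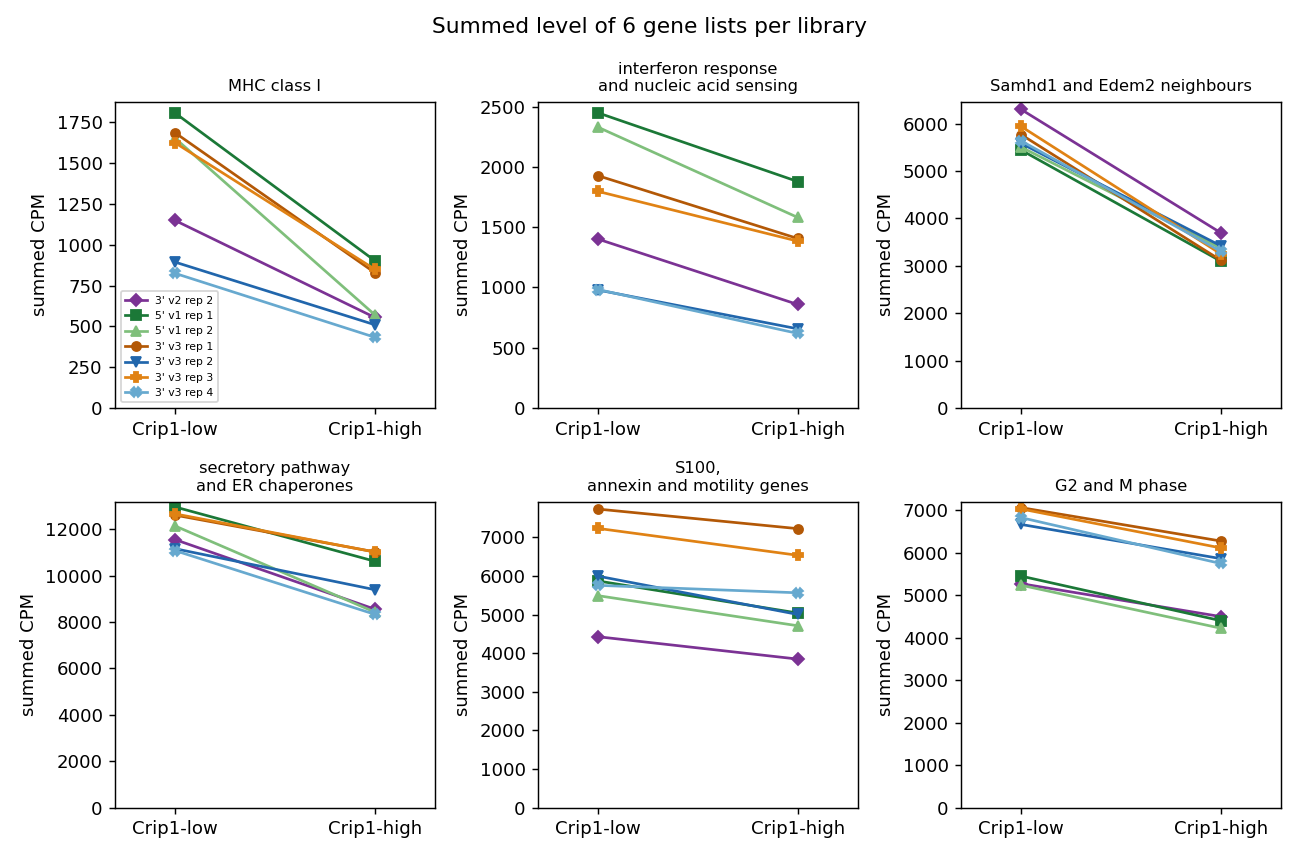
Summed CPM of 6 gene lists in Crip1-low and Crip1-high IVA12-like cells; each line is a library and each axis starts at 0. All lines fall, most steeply for MHC class I and for the neighbours of Samhd1 and Edem2. The 6 lists are a selection from 22, and the summed p53 targets, not drawn, rose in each library.

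Genes of the secretory pathway and endoplasmic reticulum chaperones were lower more often than higher, by small amounts. Of 35 tested, 18 were lower, 3 higher and 14 not called, with a median log2 fold change of −0.18. Manf, a secreted factor of the stressed endoplasmic reticulum, was at 313 to 643 CPM (median 444) in Crip1-high and 506 to 806 CPM (median 698) in Crip1-low sums (log2 fold change −0.52 ± 0.07) and Sec61g, a part of the translocation channel, fell by 0.47 on the log2 scale. Prdx4, a peroxidase that drives disulfide formation, rose, with 115 against 64.3 CPM as medians (log2 fold change 0.73 ± 0.08). Of 19 genes of endoplasmic reticulum-associated degradation, the pathway of Edem2, 8 were lower and 1 higher, with a median of −0.16. Erlec1, a lectin of this pathway, was at 15.9 to 41.3 CPM (median 28.7) in Crip1-high and 47.6 to 69.3 CPM (median 62.5) in Crip1-low sums without overlap (edgeR adjusted p = 4.75e-11), and Edem1, a relative of Edem2, was at 101 to 270.1 CPM (median 173) in Crip1-high and 158 to 410.3 CPM (median 233) in Crip1-low sums (log2 fold change −0.54 ± 0.08). Ube2j1, a ubiquitin-conjugating enzyme of this pathway, fell by 0.49 on the log2 scale.

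B lineage genes moved both ways. Of 8 tested markers of the line, 6 were lower and 1 higher, with a median of −0.60. Sdc1, syndecan 1, the marker of plasma cells, was at 23.2 to 78.8 CPM (median 42.8) in Crip1-high and 70.7 to 131 CPM (median 95.3) in Crip1-low sums (log2 fold change −1.15 ± 0.10, edgeR adjusted p = 4.32e-14). Jchain fell by 0.71 and Xbp1, the transcription factor of the secretory program, by 0.49 on the log2 scale. Of 14 tested transcription factors of the lineage, 4 were higher and 5 lower. Pou2af1, the coactivator of octamer factors at antibody genes, rose from 291 to 771 CPM (median 661) to 429.8 to 1231 CPM (median 886) (log2 fold change 0.49 ± 0.07), while Pou2f2, an octamer factor it binds, fell by 0.59 and Bhlhe41, a transcriptional repressor that B-1a cells need, by 0.62. Of 10 tested genes of the B cell receptor, 3 were higher and 4 lower. Cd81, part of the coreceptor, was at 27.3 to 128 CPM (median 63.5) in Crip1-high and 84.7 to 212 CPM (median 171) in Crip1-low sums, Cd79b, a signalling chain, fell by 0.45, and Blnk, an adaptor, by 0.42. Cd74, the invariant chain of class II, was at 8.20 to 68.6 CPM (median 30.0) in Crip1-high and 38.7 to 162 CPM (median 102) in Crip1-low sums (log2 fold change −1.12 ± 0.19).

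The relatives of Crip1 did not follow it as a group. Of 15 tested genes with LIM domains, 4 were higher and 3 lower, with a median of 0.36. Pdlim1, Pdlim2 and Limd1, which bind the cytoskeleton or its junctions, had log2 fold changes of 0.75 ± 0.16, 0.59 ± 0.14 and 0.36 ± 0.10 (SE), and 0.64, 0.52 and 0.28 in the 5′ v1 and 3′ v2 libraries alone, where none of them passed. Crip2, the closest relative of Crip1 and its neighbour in the gene list, was at 3.17 to 17.1 CPM (median 5.47) in Crip1-high and 2.98 to 6.11 CPM (median 5.40) in Crip1-low sums and did not pass (log2 fold change 0.64 ± 0.28, adjusted p = 0.0743), nor did it without 3′ v3 replicate 4 (0.42). Of 22 tested S100, annexin and motility genes, 2 were higher and 13 lower, with a median of −0.46. Emp3, a membrane protein, was at 0 to 34.5 CPM (median 9.52) in Crip1-high and 25.1 to 77.1 CPM (median 42.8) in Crip1-low sums (log2 fold change −1.48 ± 0.15), Cd44, the receptor for hyaluronan, fell by 0.59, and Anxa7, an annexin, rose by 0.61. Tmsb4x is a member of this list, so its rise stood against the direction of most members.

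Genes of G2 and M phase were called lower more often than higher. Of 40 tested, 3 were higher and 12 lower (median log2 fold change −0.15), beside 14.4% and 16.6% over all genes, and 30 of the 40 were below 0. Their summed level was 4221 to 6272 CPM in Crip1-high and 5231 to 7057 CPM in Crip1-low sums, and it was lower in Crip1-high in 7 of 7 libraries. Of 36 tested S phase genes, 4 were higher and 6 lower (median −0.09). Tpx2, a spindle assembly factor, was at 98.4 to 212 CPM (median 136) in Crip1-high and 172 to 357 CPM (median 240.0) in Crip1-low sums (log2 fold change −0.79 ± 0.08), Hmgb2, a chromatin protein, fell by 0.51 and Mki67, the proliferation marker, by 0.39. In S phase, Ung, a uracil glycosylase, rose by 0.61, and Gins1 and Chaf1b, replication and chromatin assembly factors, fell by 0.77 and 0.57 on the log2 scale. Tpx2 and Gins1 lie in the run of genes from Sec23b to Pofut1 described below.

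In the remaining lists genes were called in both directions, as they were over all genes tested (14.4% higher and 16.6% lower). Of 13 tested p53 targets 3 were higher and 4 lower. Summed over the list they lay at 3216 to 6151 CPM in Crip1-high and 2080 to 4312 CPM in Crip1-low sums, higher in each library. Mdm2, the ligase that degrades p53 and by level the leading gene of this list, was at 2054 to 4554 CPM (median 3718) in Crip1-high and 1155 to 2556 CPM (median 2134) in Crip1-low sums (log2 fold change 0.78 ± 0.05, edgeR adjusted p = 2.21e-20), Btg2, an antiproliferative factor, rose by 0.49, and Bbc3, which promotes cell death, fell by 0.76. Of 22 genes of nucleotide synthesis 6 were higher and 5 lower. Impdh2, which commits purines to guanine nucleotides, fell by 0.60, Tk1, a thymidine kinase, by 0.74, and Adsl, of purine synthesis, rose by 0.59. Of 24 genes of glycolysis and hypoxia 3 were higher and 5 lower: Eno1, an enolase that can share reads with a near copy, rose by 0.62 and Pdk1, which restrains pyruvate dehydrogenase, by 0.50, while P4ha1, a collagen hydroxylase, fell by 0.92. Of 22 genes of cholesterol synthesis and uptake 4 were higher and 1 lower, with Srebf2, their main regulator, up by 0.66 and Idi1, of the isoprenoid steps, by 0.46. Of 15 immediate early and heat shock genes 2 were higher and 2 lower. Hspa8, a chaperone, fell by 0.33 and Jund, an AP-1 subunit, by 0.25.

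The position of genes was described next, since Samhd1 and Edem2 are neighbours on the mouse genome. The deposited gene list follows the order of genes on chromosomes as far as the neighbour lists show: the 54 listed neighbours of Samhd1 and Edem2 lay within 122 consecutive rows, the 20 of Crip1 within 24 and the 12 of Fam120a within 23. Of 43 tested neighbours of Samhd1 and Edem2, 36 were lower and 1 higher, with a median log2 fold change of −0.78, and 10 were lower without overlap. These genes have unrelated roles. Rpn2, a subunit of oligosaccharyltransferase, was at 136 to 300.0 CPM (median 188) in Crip1-high and 351 to 587 CPM (median 523) in Crip1-low sums (log2 fold change −1.27 ± 0.07, edgeR adjusted p = 2.40e-22). Eif2s2, a translation initiation factor, fell by 1.01 and Raly, an RNA-binding protein, by 0.94 on the log2 scale. Between 36 and 41 of the 43 genes had a ratio below 1 in each library, with median log2 ratios from −0.53 to −0.72.

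Single neighbours of the other lead genes went both ways. Of 12 tested neighbours of Crip1, 4 were higher and 1 lower, beside 14.4% and 16.6% over all genes, with a median of 0.08. Summed over the list they lay at 551 to 997 CPM in Crip1-high and 437 to 754 CPM in Crip1-low sums, higher in each library. The median log2 ratio of the 12 genes ran from −0.13 to 0.21 over libraries. Akt1, a kinase of growth signalling, was at 91.7 to 188 CPM (median 102) in Crip1-high and 38.9 to 72 CPM (median 52.6) in Crip1-low sums without overlap (log2 fold change 1.08 ± 0.09), and Pld4, a nuclease of endosomes, at 0 to 6.05 CPM (median 3.17) in Crip1-high and 10.2 to 21.9 CPM (median 18) in Crip1-low sums (log2 fold change −2.10 ± 0.24). Of 8 tested neighbours of Fam120a, 1 was higher (Ninj1, an adhesion protein, 0.49 ± 0.10) and 1 lower (Cenpp, a centromere protein, −0.57 ± 0.14), and Bicd2, a dynein adaptor, did not pass (0.34 ± 0.15, adjusted p = 0.0751). Bicd2 was at 0.52 without 5′ v1 replicate 1 (adjusted p = 0.00547), at 0.47 in the 3′ v3 libraries alone (adjusted p = 0.0195), at 0.03 in the others and at 0.01 without cells holding a UMI of 6 T cell genes. Cenpp was at −0.27 in the 5′ v1 and 3′ v2 libraries alone (adjusted p = 0.595) and at −0.45 without those cells (adjusted p = 0.0710), and passed in neither.

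Runs of neighbouring genes moved together elsewhere as well. Genes with at least 20 CPM were cut, in the order of the deposited list, into 204 blocks of 25 genes, a description made after the neighbours had been seen. Median log2 fold changes of the blocks ran from −0.24 to 0.28 (5th to 95th percentile) in the 3′ v3 libraries and from −0.22 to 0.33 in the others. In 7 blocks the median was 0.4 or more away from 0 in the 3′ v3 libraries, and in all 7 the other libraries showed the same sign. Since the 3′ v3 libraries chose the blocks, calls were counted in the 5′ v1 and 3′ v2 libraries alone, where 41 of 175 genes were called higher and 57 lower, beside 6.67% and 7.29% of the 5100 genes in all blocks. Over the 204 blocks the medians of the separate library sets had a Pearson correlation of 0.875, given as a description, since blocks share libraries and cell classes.

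The blocks below 0 were Sec23b to Pofut1, Asxl1 to 1110008F13Rik and Wdr70 to Pop1. The blocks from Sec23b to 1110008F13Rik follow each other and hold Edem2 and many of its listed neighbours. Their medians were −0.68 and −0.85 in 3′ v3 and −0.62 and −0.82 in the other libraries, where 12 and 20 of 25 genes were called lower, Edem2 counted with them, and 1 gene of the first block was called higher. In Wdr70 to Pop1 the medians were −0.74 and −0.72, and 19 of 25 genes were called lower in the others. The blocks just before them in the list had medians of 0.02 (Mrps26 to Polr3f) and 0.15 (Yy1 to Ttc33) in 3′ v3. Those just after had −0.19 (Ndrg3 to Ube2c) and −0.31 (Vps13b to Tbc1d31), with 5 and 9 of 25 genes called lower in the other libraries.

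The blocks above 0 were Huwe1 to Rpl22l1, Rac2 to Rbx1, Ep300 to Samm50 and Mcrs1 to Pcbp2. In Rac2 to Rbx1 and Mcrs1 to Pcbp2, 9 and 7 of 25 genes were called higher in the 5′ v1 and 3′ v2 libraries alone. In Ep300 to Samm50, which holds Bik, all 25 genes were above 0 in both sets of libraries, 13 were called higher in the 5′ v1 and 3′ v2 libraries alone and the medians were 0.48 and 0.47. The block Huwe1 to Rpl22l1 crossed from the end of the X chromosome into the next chromosome of the list. It was split at the first change of sign in the fit of all 7 libraries, which holds those that chose the block. The 14 genes before the split, from Huwe1 to Hccs, were thus above 0 by construction. All 14 were called higher, with a median log2 fold change of 1.00 and a range of 0.44 to 3.39. Of the following 11, from Mrps28 to Rpl22l1, 10 were called lower, with a median of −0.92. In the 5′ v1 and 3′ v2 libraries alone, 11 of the 25 genes were called higher and 6 lower. Of the 11 genes named above among those that rose most, 5 lay in the 7 blocks (Tmsb4x, Bik, Sms, Msl3 and Zrsr2), and of the 12 that fell most 1 did (Cp). What these runs stand for was not tested.

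**Figure D5:**
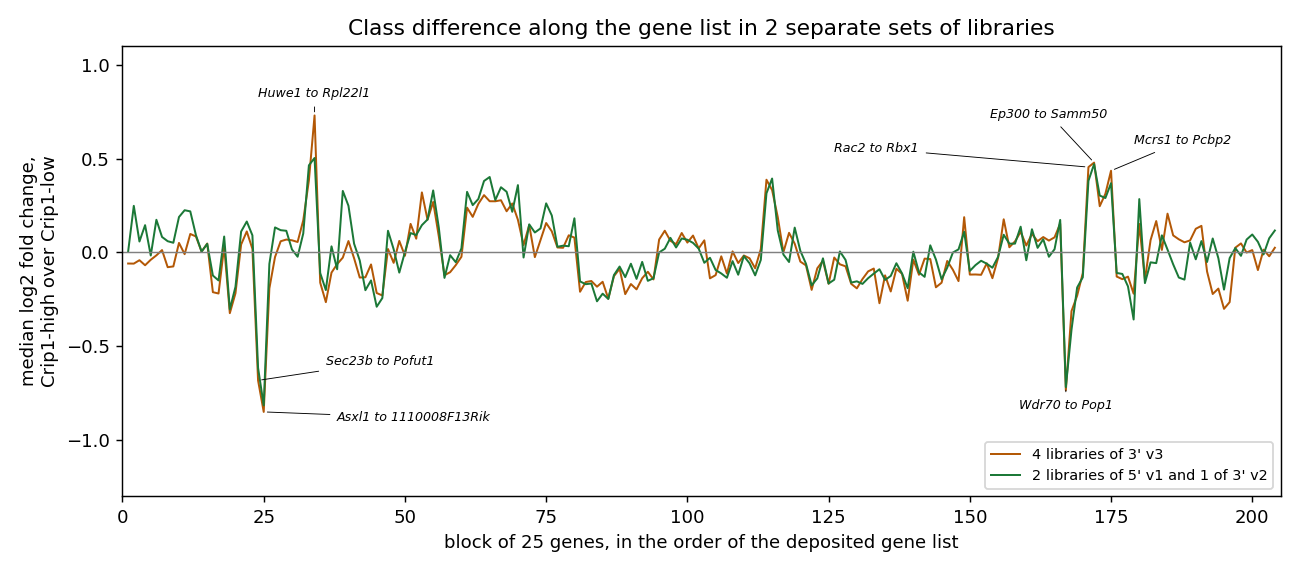
Median log2 fold change of Crip1-high over Crip1-low cells in 204 blocks of 25 genes along the deposited gene list, fitted separately in the 4 libraries of 3′ v3 and in the 3 others. The 7 labelled blocks are those with a median of 0.4 or more away from 0 in 3′ v3, and both lines move together there.

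The class difference itself was compared between kits and between preparations, by tests added after the data had been seen. Between 3′ v3 and 5′ v1 it differed for 21 of 10043 genes (0.209%), with 790 at an unadjusted p under 0.05, and between 3′ v3 replicates 1 and 3 and replicates 2 and 4 for 27 of 10178 (0.265%), with 714 at an unadjusted p under 0.05. For nearly all genes no difference was detectable with 2 or 4 libraries a side. Tmsb4x rose less in 3′ v3 than in 5′ v1, by −2.47 ± 0.40 on the log2 scale (SE; adjusted p = 3.24e-06), and Cd52 fell less, by 1.64 ± 0.32 (adjusted p = 3.37e-04). Csf2rb rose less in 3′ v3 replicates 1 and 3 than in replicates 2 and 4, by −1.26 ± 0.18 (adjusted p = 3.25e-09). In those libraries Csf2rb was at 44.3 and 55.2 against 199 and 283 CPM in Crip1-high sums, and at 25.7, 22.8, 46.8 and 45.9 CPM in Crip1-low sums. The sign of its class difference was the same in both preparations, as the rule that named it asked.

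Further genes named above kept their direction but not their call, or moved by over 1.5 times, in part of the libraries or cells. In the 5′ v1 and 3′ v2 libraries alone Tk1 was at −0.45 and Blnk at −0.24 on the log2 fold change scale (adjusted p = 0.144 and 0.307). Anxa7 was there at 0.53, Chaf1b at −0.49, Jund at −0.25, Pdk1 at 0.45 and Idi1 at 0.52, and none of these 7 genes passed. The falls of Cd79b and Cd74 were larger in those libraries, −0.73 and −1.83, and that of Cd79b was −0.30 in 3′ v3. With cells thinned to 5000 UMIs, Ninj1 (0.22), Ube2j1 (−0.22), Blnk (−0.10) and Idi1 (0.16) lost their calls and moved by over 1.5 times, and Anxa7, Pdk1 and Limd1 lost theirs with smaller moves. With cells of under 5% mitochondrial share, Xbp1 (−0.24), Cenpp (−0.14), Pou2af1 (0.29) and Adsl (0.29) did so with moves of over 1.5 times, Blnk, Chaf1b, Pdk1, Idi1, Srebf2 and Limd1 with smaller ones, and Jchain was at −0.43 and Cd74 at −0.64. Without cells holding a UMI of 6 T cell genes, Bbc3 was at −1.23 and Cd79b at −0.70, and Limd1 lost its call (0.28, edgeR adjusted p = 0.137). Edem1 was at −0.34 with thinned cells, and Hspa8 at −0.22 in the 3′ v3 libraries alone.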

How the data were processed

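The authors deposited UMI counts that were not normalized, with 1 value for each gene in each barcode. Before counting, seqtk had been used by them to reduce library reads, and reads were mapped to hg19 joined with mm10. Per the study's methods, counting was done with Cell Ranger 3.0.2, and the joined reference was the one 10x Genomics supplied for Cell Ranger 1.2.0. All barcodes were kept. The other 3′ v2 library was not analysed here, and no mouse annotation was used, so no positions or sequences are given. Samples were grouped by kit from their titles, and replicates were numbered in accession order.

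Members and gene lists were chosen with earlier results of these data known. Cells were classed by the thresholds in the report. Mouse UMIs were summed per library and class, with no doublet caller applied, and CPM are counts scaled to 1000000 mouse UMIs. Tests used edgeR 4.0.16 in R 4.3.3 (TMM scaling, filterByExpr, robust quasi-likelihood test, library as block) with Benjamini-Hochberg adjustment over 8517 genes; the 8 genes of the rule and mitochondrial genes were left out of the test. The block pairs the classes of 1 library, since both come from the same cells and run. Each SE of a fitted log2 value is its size divided by the root of the F statistic of its test. It was not estimated directly and is rough where a class holds few UMIs. The script was checked on simulated data. Cell measures were tested by exact sign flips over 7 libraries. Named genes have an adjusted p under 0.05, the same direction in 7 libraries and a mean of 20 CPM or more (the 12 largest each way), plus the 3 of smallest p in each of 22 lists; 2 genes that the rule chose are not reported here. Alternatives included DESeq2 1.42.0, other scalings, filters and thresholds, thinning, and leaving out each library. Intervals are exact (Clopper-Pearson) at 95%. Depth ran from 24790710 to 251164949 UMIs per library, and sums of as few as 12 cells limit precision.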

Additional observations from a re-analysis of the deposited data

Results flagged for a closer look

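In the 4 libraries of 3′ v3, 7 of 94 values checked had a library far from the other 3, and chance would flag about 1 in 20. In replicate 2, with 12 members, the log2 ratio of Crip1-high to Crip1-low, with 5 CPM added to both levels, was 1.97 for Cbfa2t3 (median of the others 1.12), −3.76 for Sis (−1.92) and 1.85 for Pdlim1 (0.42). The Crip1-high sum of replicate 2 held no UMI of Sis, so that its ratio is set by the added 5 CPM and is no measured fold. In replicate 4 it was −1.47 for Pou2f2 (−0.47), −2.45 for Psmb9 (−1.15), 0.69 for Btg2 (0.53) and 0.88 for Pdk1 (0.25).

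The class difference of 8 named genes differed between kits or preparations by a test of that difference in edgeR. From 5′ v1 to 3′ v3 the log2 fold change moved by −2.47 for Tmsb4x (adjusted p = 3.24e-06), 1.64 for Cd52 (adjusted p = 3.37e-04), 0.47 for Btg2 (adjusted p = 0.0161) and 0.92 for Cd74 (adjusted p = 0.0269). Between the preparations of 3′ v3, replicates 1 and 3 against 2 and 4, it moved by −1.26 for Csf2rb (adjusted p = 3.25e-09), −0.56 for Pou2af1 (adjusted p = 1.23e-07), 0.31 for Mdm2 (adjusted p = 9.85e-05) and 2.89 for Kcnq1ot1 (adjusted p = 0.00328). Kcnq1ot1 was seen in 0% to 21.4% of the Crip1-high cells of a library without thinning, so its Crip1-high sums hold few UMIs.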

How the results depend on the processing

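Of the 83 named genes that were called, 39 kept their direction and call under each of the 23 alternatives that tested them, and 62 did so under all but the fit without the library block. None of the 83 changed sign. Leaving out 1 library changed, among named genes that could then still be tested, the call of Bicd2, which passed without 3′ v3 replicate 2 or 5′ v1 replicate 1. Without 3′ v3 replicate 3 Arhgap15, which had been called, could not be tested, nor could Cd27, Crip2 and Thy1, and Cd27 could not without 3′ v3 replicate 1 and Thy1 without replicate 4. Without the replicate block, which discards the pairing of classes within a library, 135 genes were higher and 189 lower, and 39 named genes lost their call. The 5′ v1 and 3′ v2 libraries alone gave 412 and 457 genes, cells thinned to 5000 UMIs 372 and 364, cells without a UMI of 6 T cell genes 744 and 802, and cells under 5% mitochondrial share 410 and 488. DESeq2 called 930 genes lower. Without 1 library 975 to 1258 genes were higher and 887 to 1562 lower, the lowest lower count without 3′ v3 replicate 3, which holds 87 of the 235 members. With all genes tested, 1146 were higher and 1867 lower. Scaling by total UMIs gave 1100 and 1592 genes. A floor of 0.01% for the IVA12 markers, added after the data had been seen, is among the alternatives that kept the counts within 1.5 times.

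With a mitochondrial limit of 5%, the difference in median UMIs was −3213 (exact permutation p = 0.25, where 5 pairs allow no p under 0.0625). That in mitochondrial share, which the limit itself cuts, was −0.0304 points. The share of Crip1-high cells was then 2.02% and 0% in 5′ v1 and 0%, 3.70% and 6.38% in 3′ v3 replicates 2 to 4. Without cells above 1.5 times the median UMIs, genes at 5000 UMIs differed by −24.4 (exact permutation p = 0.0312) and the human share by 0.000916 points. Leaving out 1 library gave from −0.00554 to 0.00287 points for the human share. The few UMIs of the smallest sums, 266664 in 3′ v3 replicate 2, limit what can be seen in genes under 20 CPM.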
